A study of Homo sapiens with 8 samples.

Results

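Bile acid synthesis, export and feedback are described here through 10 genes: CYP7A1, CYP8B1, CYP27A1, CYP7B1, AKR1D1 and BAAT, which make and conjugate bile acids, ABCB11, which exports them, and NR1H4, NR0B2 and FGF19, which carry the feedback. They were chosen by function, and every probe set that the platform annotation paired with exactly 1 of these symbols was taken. That gave 11 probe sets for 9 genes, of 54675 probe sets and 19775 genes in the series. NR1H4, which encodes the bile acid receptor FXR, had no probe set paired with it alone and is not analysed here. The 8 arrays form 4 groups of 2: Hep-3B with shKLHL23, Hep-3B with shLuc, Huh7 with shKLHL23 and Huh7 with shLuc. Hep-3B and Huh7 are established human hepatoma lines. All were grown with 10% serum, transduced at a multiplicity of infection of 2 with lentivirus carrying a short hairpin RNA, and put under puromycin from 48 hours. shKLHL23 targets KLHL23, a Kelch-like protein, and shLuc targets luciferase, which human cells lack. The labels give 1 name for the knockdown hairpin and number the replicates of each group 1 and 3. Whether the cultures were separate is not stated, so p-values rest on the scatter among these arrays alone, which may be technical. In such bulk RNA, fewer cells that express a gene and less RNA per cell cannot be told apart.

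Hepatocytes turn cholesterol into bile acids. In the classic route CYP7A1 adds the first hydroxyl group and sets the pace, CYP8B1 directs the product to cholic acid, and AKR1D1 reduces the steroid ring. In the alternative route CYP27A1 oxidises the side chain and CYP7B1 then hydroxylates the ring, and BAAT joins the finished acids to glycine or taurine before ABCB11 (the bile salt export pump) moves them into bile. Bile acids bind FXR, which induces NR0B2 (also called SHP) and, in the intestine, the hormone FGF19, and both lower CYP7A1 transcription. NR0B2 does so as a corepressor that lacks a DNA-binding domain, and FGF19 through the hepatocyte receptor FGFR4 and its partner KLB.

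All values are log2 RMA expression values as deposited, and all differences are on that scale. Array medians lay between 4.56 and 4.597. Replicates correlated across genes at 0.995 to 0.998, and the knockdown replicates differed more than the control replicates (SD of the difference 0.22 and 0.25, against 0.16 and 0.17). All 8 hepatocyte markers, albumin among them, lay above the upper quartile of the probe sets on every array, whereas 0 of 5 fibroblast, 0 of 3 blood and 0 of 4 endothelial markers did. Of 5 cholangiocyte markers 3 did. The endothelial marker PECAM1 lay above the upper quartile on each Hep-3B array but on no Huh7 array. The fibroblast marker COL1A1 lay above it on the Huh7 arrays except control replicate 3, and on no Hep-3B array. KLHL23 itself had 7.21 and 6.15 in Hep-3B with shKLHL23, against 7.81 and 7.84 with shLuc (difference -1.14, SE 0.27, limma adjusted p = 0.0833). In Huh7 it had 5.78 and 5.88 with shKLHL23, against 7.89 and 7.87 with shLuc (-2.05, SE 0.27, limma adjusted p = 0.00363). The knockdown was uneven in Hep-3B, where replicate 1 kept more transcript than replicate 3, and its fall did not pass the threshold of an adjusted p under 0.05 there. The difference between the 3' and 5' probe sets of ACTB, which follows RNA integrity, was 0.74 and 0.75 with shKLHL23 and 0.44 and 0.54 with shLuc in Hep-3B. In Huh7 it was 0.52 and 0.55 with shKLHL23 and 0.87 and 0.83 with shLuc. The same difference for GAPDH was 0.22 and 0.24 with shKLHL23 and 0.12 and 0.12 with shLuc in Hep-3B, and 0.15 and 0.11 with shKLHL23 and 0.13 and 0.089 with shLuc in Huh7. Both were higher with shKLHL23 in Hep-3B. In Huh7 ACTB was lower with shKLHL23 and the GAPDH arrays overlapped. The part of these values in the results below was not tested.

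The first comparison set the control cells of the 2 lines side by side, Huh7 minus Hep-3B. Of the 9 genes, 5 were lower and 1 was higher in Huh7, and 3 did not pass the threshold. Over all genes the share called in this comparison was 32.7%, with 17.7% higher and 14.9% lower. The arrays of the 2 lines did not overlap for 67.1% of all genes. The median over the 9 genes was -0.56, against 0.02 over all genes. The enzymes AKR1D1, BAAT, CYP27A1 and CYP7A1 and the corepressor NR0B2 were lower in Huh7, and the hormone FGF19 was higher.

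**Figure D1:**
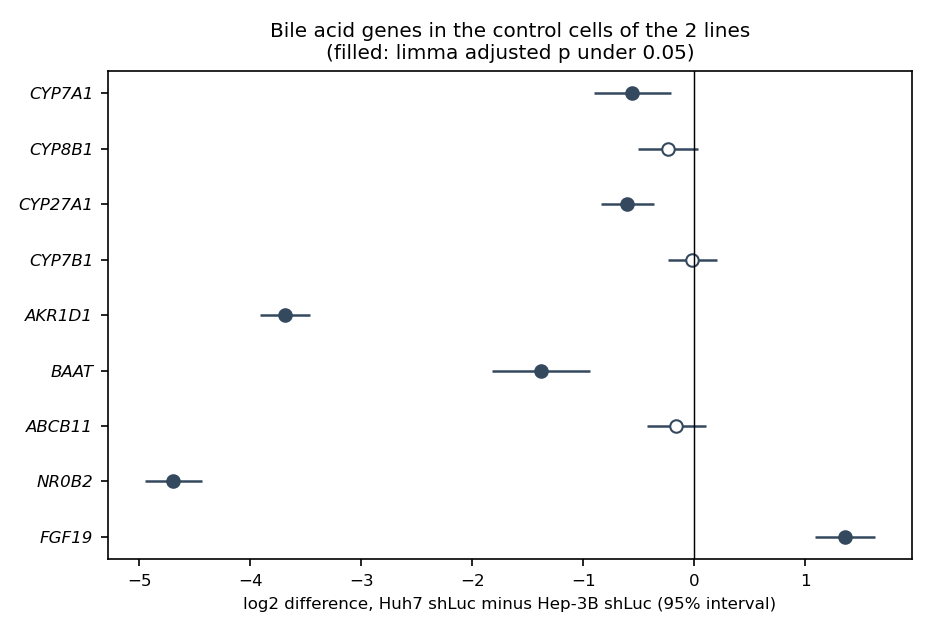
Log2 difference between Huh7 shLuc and Hep-3B shLuc cells for the 9 bile acid genes, with limma's 95% interval as a bar and genes that passed an adjusted p under 0.05 as filled points (2 arrays per group). NR0B2 and AKR1D1 lie farthest to the left, at -4.70 and -3.69, and FGF19 alone lies to the right with a filled point.

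NR0B2 had 6.06 and 6.12 in Huh7 control arrays and 10.80 and 10.77 in Hep-3B control arrays. The difference of -4.70 (SE 0.11, limma adjusted p = 2.5e-08) ranked 51st in size among the 19775 genes. AKR1D1 had 3.07 and 3.02 in Huh7 controls and 6.80 and 6.66 in Hep-3B controls (-3.69, SE 0.10, limma adjusted p = 4.27e-08). The Huh7 control values of AKR1D1 lay below the lower quartile of the probe sets (3.08 to 3.12), a level at which RMA compresses differences, and background calls were not used here. BAAT had 4.11 and 4.21 in Huh7 and 5.73 and 5.35 in Hep-3B (-1.38, SE 0.19, limma adjusted p = 0.000615). CYP27A1, the first enzyme of the alternative route, had 8.70 and 8.91 in Huh7 and 9.43 and 9.37 in Hep-3B (-0.60, SE 0.10, limma adjusted p = 0.00202). CYP7A1 was below the lower quartile in all 4 control arrays, with 1.91 and 2.16 in Huh7 and 2.63 and 2.55 in Hep-3B (-0.56, SE 0.15, limma adjusted p = 0.0202). That call was lost without either Hep-3B control array (limma adjusted p = 0.104 without replicate 1 and 0.0665 without replicate 3) or without Huh7 control replicate 1 (0.139). FGF19 ran the other way, with 4.99 and 5.09 in Huh7 and 3.82 and 3.55 in Hep-3B (1.36, SE 0.12, limma adjusted p = 4.44e-05).

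The 3 genes that did not pass were CYP8B1, CYP7B1 and ABCB11. CYP8B1 had 4.47 and 4.54 in Huh7 and 4.76 and 4.72 in Hep-3B (-0.23, 95% interval -0.50 to 0.04, limma adjusted p = 0.183). Both probe sets of CYP7B1 lay below the lower quartile on all 8 arrays, between 1.77 and 2.35. Of the 2 probe sets of ABCB11 the brighter lay between 2.81 and 3.26 and the other between 2.42 and 2.72. The brighter ABCB11 probe set was below the lower quartile on 3 of the 8 arrays, each a Huh7 array, and the other on all 8. CYP7B1 differed by -0.02 (95% interval -0.24 to 0.21) and ABCB11 by -0.16 (interval -0.43 to 0.11) between the control cells.

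The sequence upstream of the annotated start is shown for AKR1D1, the enzyme with the largest difference between the lines. The RefSeq promoter table of build GRCh38.p14 matched 5 of the 10 genes, AKR1D1, ABCB11, BAAT, CYP27A1 and NR1H4. The sequence is the 250 bases before the start, read along the gene's strand.
AKR1D1 (chr7:138076209-138076458, + strand): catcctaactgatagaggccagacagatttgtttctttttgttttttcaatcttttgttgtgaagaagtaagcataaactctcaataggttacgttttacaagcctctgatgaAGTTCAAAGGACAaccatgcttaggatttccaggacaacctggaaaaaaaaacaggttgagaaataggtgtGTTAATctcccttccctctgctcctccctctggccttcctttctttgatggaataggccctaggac
Capitals mark motif matches. AGTTCAAAGGACA, at -137 to -125, matches the nuclear receptor half-sites AGNTCA and AGGNCA in direct repeat with 1 base between them, a spacing that hepatocyte nuclear factor 4 is known to bind. GTTAAT, at -66 to -61, is a half-site of hepatocyte nuclear factor 1. The direct repeat was found in 0.131% of the 35116 windows of that table and GTTAAT in 6.23%. TCAAGG, the core bound by the receptor LRH-1, was found in 10.5% of windows and the half-site AGGTCA in 12.1%. AGGTCA followed after 1 base by its reverse complement was found in 0 windows. Both strands were searched, and the printed matches do not overlap. The motifs were chosen with the windows in view, and a match describes letters, not binding. The open base N of each half-site in the direct repeat stands where this window departs from AGGTCA. The low share of windows with that repeat therefore cannot be read as support for the match.

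The second comparison was KLHL23 knockdown in Hep-3B, shKLHL23 minus shLuc. Of the 9 genes 1 rose, CYP7A1, and 0 fell, where 0.693% of all genes were called, 0.536% higher and 0.157% lower. The median of the 9 differences was 0.15, against 0.02 over all genes. CYP7A1 had 3.91 and 4.35 with shKLHL23 and 2.63 and 2.55 with shLuc. Both knockdown arrays lay above both control arrays, as 53% of all genes were separated one way or the other. The knockdown arrays lay above the lower quartile and both control arrays below it. The rise was 1.54 (SE 0.15, limma adjusted p = 0.0121, and 0.00161 to 0.139 across the alternatives). It did not pass without Hep-3B control replicate 1 (limma adjusted p = 0.0943) or 3 (0.10006), nor when the 4 Hep-3B arrays were fitted alone (0.139), while its size stayed between 1.32 and 1.75. Because the control level is that of the dimmest probe sets, the size of the rise is uncertain.

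**Figure D2:**
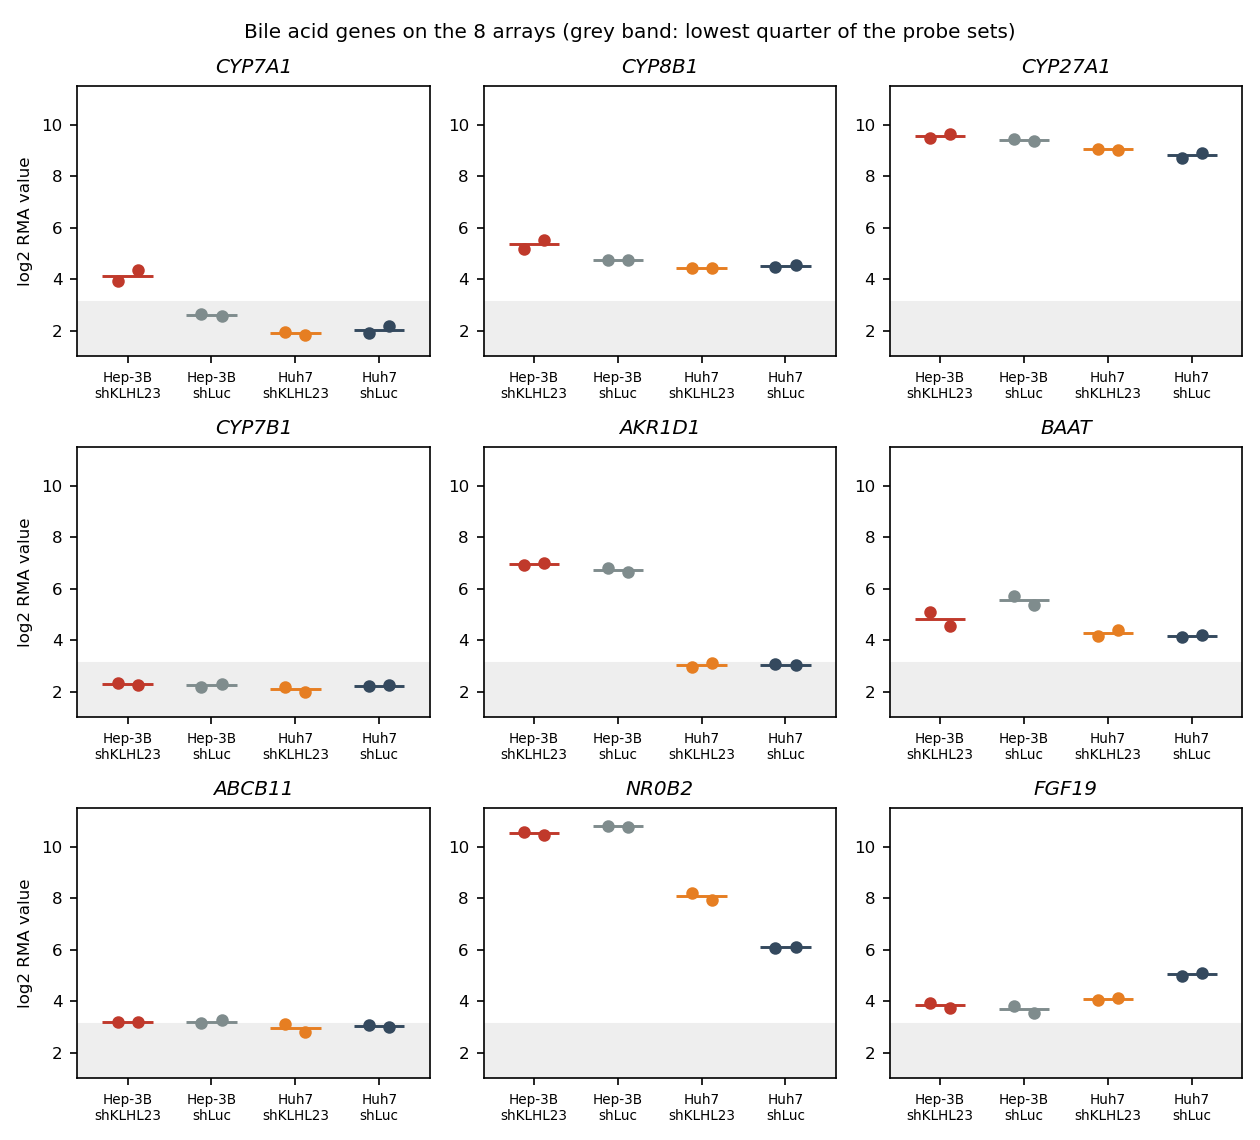
Log2 RMA value of each bile acid gene (its brightest probe set) on the 8 arrays, by group, with points for arrays and a bar for the group mean, and a grey band up to the mean lower quartile of the probe sets. CYP7A1 leaves the grey band only in Hep-3B with shKLHL23, NR0B2 is at 8.21 and 7.92 in Huh7 with shKLHL23 between the other groups, and CYP7B1 lies in the band throughout.

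Among the other enzymes of synthesis in Hep-3B, CYP8B1 had 5.17 and 5.52 with shKLHL23 and 4.76 and 4.72 with shLuc. Its arrays did not overlap between the groups, as was so for 53% of all genes, and the difference of 0.61 (SE 0.12) did not pass (limma adjusted p = 0.0639). It passed with an intensity trend and robust prior (0.0347), with array weights (0.0319) and without knockdown replicate 1 (0.00895, at 0.78). BAAT had 5.11 and 4.54 with shKLHL23 and 5.73 and 5.35 with shLuc. The difference of -0.72 (SE 0.19, limma adjusted p = 0.109) did not pass and rested largely on knockdown replicate 3: it was -0.43 without that array and -1.002 without replicate 1, when it passed (limma adjusted p = 0.026). AKR1D1 had 6.93 and 6.9998 with shKLHL23 and 6.80 and 6.66 with shLuc (0.23, 95% interval 0.01 to 0.46, limma adjusted p = 0.264). CYP27A1 differed by 0.15 (interval -0.09 to 0.39) and CYP7B1 by 0.03 (interval -0.19 to 0.26), or 0.29 by its second probe set, which did not pass either.

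The feedback and export genes did not pass in Hep-3B. NR0B2 had 10.58 and 10.45 with shKLHL23 and 10.80 and 10.77 with shLuc. Both knockdown arrays lay below both control arrays, as 53% of all genes were separated one way or the other. The difference was -0.27 (SE 0.11, 95% interval -0.53 to -0.01, limma adjusted p = 0.257). FGF19 had 3.94 and 3.72 with shKLHL23 and 3.82 and 3.55 with shLuc, with overlapping arrays (0.15, interval -0.12 to 0.43, limma adjusted p = 0.586). ABCB11 differed by -0.01 (interval -0.28 to 0.26) by its brighter probe set and by 0.04 by the dimmer one.

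The third comparison was KLHL23 knockdown in Huh7. NR0B2 rose and FGF19 fell, and the other 7 genes did not pass. Over all genes 13.5% were called in Huh7, 5.75% higher and 7.73% lower, so a count of 2 among 9 says little about the set. The median of the 9 differences was -0.07, against -0.00032 over all genes. NR0B2 had 8.21 and 7.92 with shKLHL23 and 6.06 and 6.12 with shLuc. The rise of 1.97 (SE 0.11, limma adjusted p = 0.000255), or 3.93-fold, ranked 18th in size of all genes and passed under all 18 alternatives run, at 1.83 to 2.12. Among the cholangiocyte markers, KRT19 (1.32, limma adjusted p = 0.00212) and EPCAM (0.36, limma adjusted p = 0.0293) also rose in Huh7 and SOX9 fell (-0.56, limma adjusted p = 0.0208). KRT7 (-0.12) and CFTR (-0.10) did not pass. Among the hepatocyte markers TTR rose by 1.23 in Huh7 (limma adjusted p = 0.00524) and by 1.58 in Hep-3B (limma adjusted p = 0.0148). The other hepatocyte markers did not pass in either line. The part of these markers in the result was not tested. For NR0B2 the knockdown arrays of Huh7 still lay 2.45 below the mean of the Hep-3B knockdown arrays, on average. FGF19 had 4.05 and 4.11 with shKLHL23 and 4.99 and 5.09 with shLuc. The fall, -0.96 (SE 0.12, limma adjusted p = 0.00304), passed under all 18 alternatives as well, at -1.01 to -0.91, and brought FGF19 to 0.515 of the control level.

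**Figure D3:**
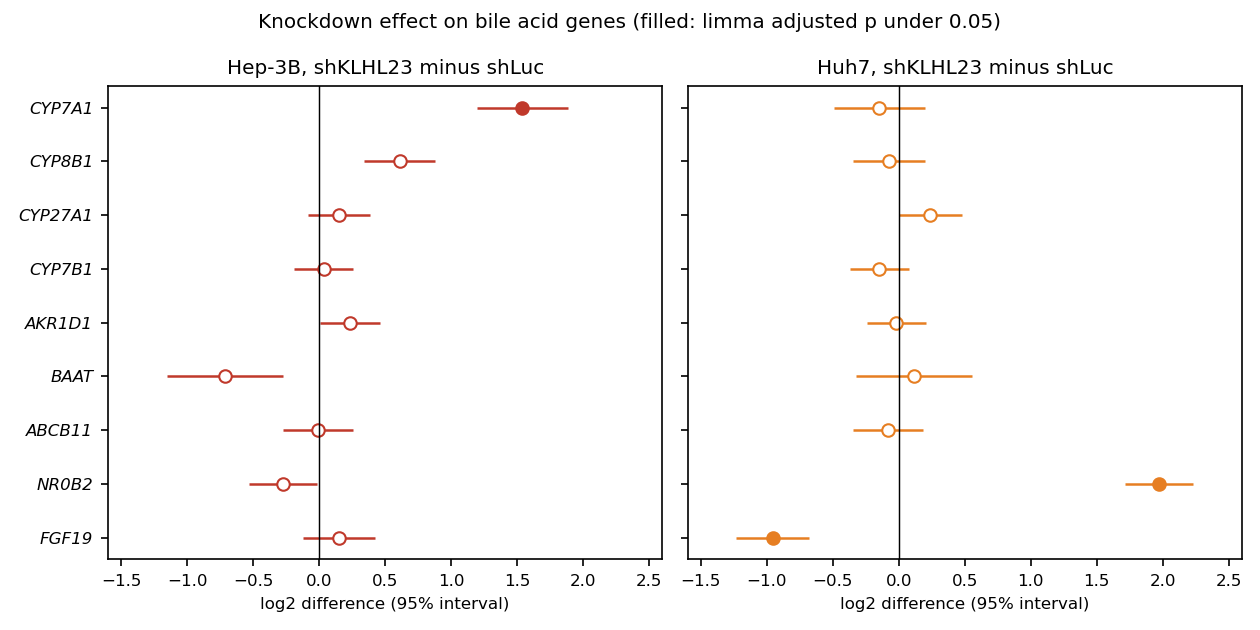
Log2 difference between shKLHL23 and shLuc cells for the 9 bile acid genes in Hep-3B (left) and Huh7 (right), with limma's 95% interval as a bar and calls at an adjusted p under 0.05 as filled points (2 arrays per group). The filled points are CYP7A1 in Hep-3B, at 1.54, and NR0B2 and FGF19 in Huh7, at 1.97 and -0.96.

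None of the 6 synthesis enzymes passed in Huh7 (limma), where 13.5% of all genes were called, so this count says little about the set. CYP27A1 had an unadjusted limma p of 0.0473. CYP7A1 stayed among the dimmest probe sets, at 1.96 and 1.82 with shKLHL23 and 1.91 and 2.16 with shLuc (-0.15, interval -0.49 to 0.20, limma adjusted p = 0.596). CYP8B1 had 4.43 and 4.43 with shKLHL23 and 4.47 and 4.54 with shLuc (-0.07, interval -0.35 to 0.20, limma adjusted p = 0.75). CYP27A1 had 9.06 and 9.02 with shKLHL23 and 8.70 and 8.91 with shLuc. Its knockdown arrays lay above its control arrays, as 53.7% of all genes were separated one way or the other, and the difference of 0.24 (interval 0.00354 to 0.48) did not pass (limma adjusted p = 0.175). BAAT had 4.16 and 4.38 with shKLHL23 and 4.11 and 4.21 with shLuc, with overlapping arrays (0.12, interval -0.33 to 0.56). AKR1D1 differed by -0.02 (interval -0.24 to 0.20), CYP7B1 by -0.15 (interval -0.37 to 0.07) and the export pump ABCB11 by -0.08 (interval -0.35 to 0.18).

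Whether the lines responded differently was tested as the Huh7 knockdown effect minus the Hep-3B knockdown effect, for which 1.26% of all genes were called, 0.445% higher and 0.814% lower. Of the 9 genes 3 passed, NR0B2, CYP7A1 and FGF19. For NR0B2 the effects were 1.97 in Huh7 and -0.27 in Hep-3B, a difference of 2.25 (SE 0.16, limma adjusted p = 0.00312) that passed under all 17 alternatives run. For CYP7A1 they were -0.15 in Huh7 and 1.54 in Hep-3B, a difference of -1.69 (SE 0.21, limma adjusted p = 0.0153, and 0.00326 to 0.0886 across the alternatives). For FGF19 they were -0.96 in Huh7 and 0.15 in Hep-3B, a difference of -1.11 (SE 0.17, limma adjusted p = 0.0307, and 0.0156 to 0.151 across the alternatives). The differences of CYP7A1 and FGF19 were each lost when any single control array of either line was left out, with sizes of -1.81 to -1.56 for CYP7A1 and -1.24 to -0.97 for FGF19. FGF19 also lost its call without either Hep-3B knockdown array or without Huh7 knockdown replicate 1. BAAT, at 0.12 in Huh7 and -0.72 in Hep-3B, differed by 0.83 (SE 0.27, limma adjusted p = 0.202), and CYP8B1, at -0.07 and 0.61, by -0.68 (SE 0.17, limma adjusted p = 0.106). Neither passed, and CYP8B1 did so only without Hep-3B knockdown replicate 1 (limma adjusted p = 0.033).

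Each gene's 4 group means can be put in order. NR0B2 was lowest in Huh7 with shLuc, then higher in Huh7 with shKLHL23, Hep-3B with shKLHL23 and Hep-3B with shLuc, and no neighbours in that order overlapped. The mean gaps were 1.97, 2.45 and 0.27, and the last of them did not pass. Knockdown and control arrays did not overlap for 53.7% of all genes in Huh7 and 53% in Hep-3B. FGF19 had the reverse order of lines, highest in Huh7 with shLuc and next in Huh7 with shKLHL23, followed by the 2 Hep-3B groups, whose arrays overlapped. CYP7A1, CYP8B1 and AKR1D1 were highest in Hep-3B with shKLHL23, then in Hep-3B with shLuc and then in Huh7. The 2 Huh7 groups overlapped for CYP7A1 and AKR1D1, and differed by 0.07 for CYP8B1. BAAT was highest in Hep-3B with shLuc, and its 2 Huh7 groups overlapped.

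Further genes of the pathway were taken from 5 lists of other synthesis enzymes, transporters, receptors and regulators, FXR targets and enzymes that detoxify bile acids. They name 52 genes, of which 45 had a probe set paired with them alone. In Hep-3B 2 of these 45 rose with knockdown and 0 fell, where 0.536% of all genes rose and 0.157% fell. Their median was 0.16, against 0.02 over all genes. Both belong to detoxification, where 2 of 4 measured genes rose. SULT2A1, which sulfates bile acids and steroids, had 10.42 and 10.75 with shKLHL23 and 9.94 and 9.80 with shLuc (0.71, SE 0.12, limma adjusted p = 0.0461). Its second probe set gave 0.91. CYP3A4, which hydroxylates bile acids and drugs, rose by 0.83 (SE 0.12, limma adjusted p = 0.0345) by its brightest probe set, but the other 4 lay between -0.10 and 0.38 and did not pass. Neither Hep-3B call passed when the 4 Hep-3B arrays were fitted alone (limma adjusted p = 0.169 and 0.139) nor without knockdown replicate 3 or any single control array of either line, and SULT2A1 was lost without either Huh7 knockdown array too (0.0725). By their brightest probe sets, 0 of the 10 other synthesis enzymes, 15 transporters, 12 receptors and regulators and 9 FXR targets passed in Hep-3B (limma). When every probe set was tested, a dimmer one of FETUB, an FXR target that encodes fetuin B, passed at 1.42 (limma adjusted p = 0.0472), while its other 2 gave 0.03 and 0.21. One of the 3 probe sets of FOXA2, a liver transcription factor, passed as well, at -0.51 (limma adjusted p = 0.0483). Its brightest probe set gave -0.40 and its dimmest 0.16, and neither passed. By brightest probe sets the largest difference in these lists was 1.34 (limma adjusted p = 0.0727) for KNG1, the kininogen gene, an FXR target in human hepatocytes.

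In Huh7 5 of the 45 rose with knockdown and 4 fell, where 5.75% of all genes rose and 7.73% fell. Their median was 0.10, against -0.00032 over all genes. Among detoxification enzymes SULT2A1 had 9.27 and 9.19 with shKLHL23 and 8.20 and 8.26 with shLuc (0.999, SE 0.12, limma adjusted p = 0.00276), and its second probe set gave 0.94. CYP3A4 rose by 0.999 (SE 0.12, limma adjusted p = 0.00292) by its brightest probe set, and the other 4 lay between -0.10 and 0.19. UGT2B4, which glucuronidates bile acids and is an FXR target, fell by 0.64 (SE 0.15, limma adjusted p = 0.0294), with 7.23 and 7.56 with shKLHL23 and 8.10 and 7.95 with shLuc. Among transporters SLC51B, a subunit of the basolateral bile acid exporter and an FXR target, fell by 0.88 (SE 0.10, limma adjusted p = 0.00219), with 7.52 and 7.45 with shKLHL23 and 8.33 and 8.41 with shLuc. Its partner subunit SLC51A, at 3.11 and 2.76 with shKLHL23 and 2.67 and 2.38 with shLuc, did not pass (0.41, SE 0.20, limma adjusted p = 0.227). Every Huh7 value of SLC51A lay below the lower quartile of the probe sets on its array, where RMA compresses differences. The canalicular pump ABCC2 rose by 0.42 (limma adjusted p = 0.0445). Of the 9 FXR targets in the list, SLC51B and UGT2B4 fell and 0 rose, where 7.73% of all genes fell and 5.75% rose. That list leaves out the 10 chosen genes, among which NR0B2, an FXR target too, rose, FGF19 fell and ABCB11 did not pass.

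**Figure D4:**
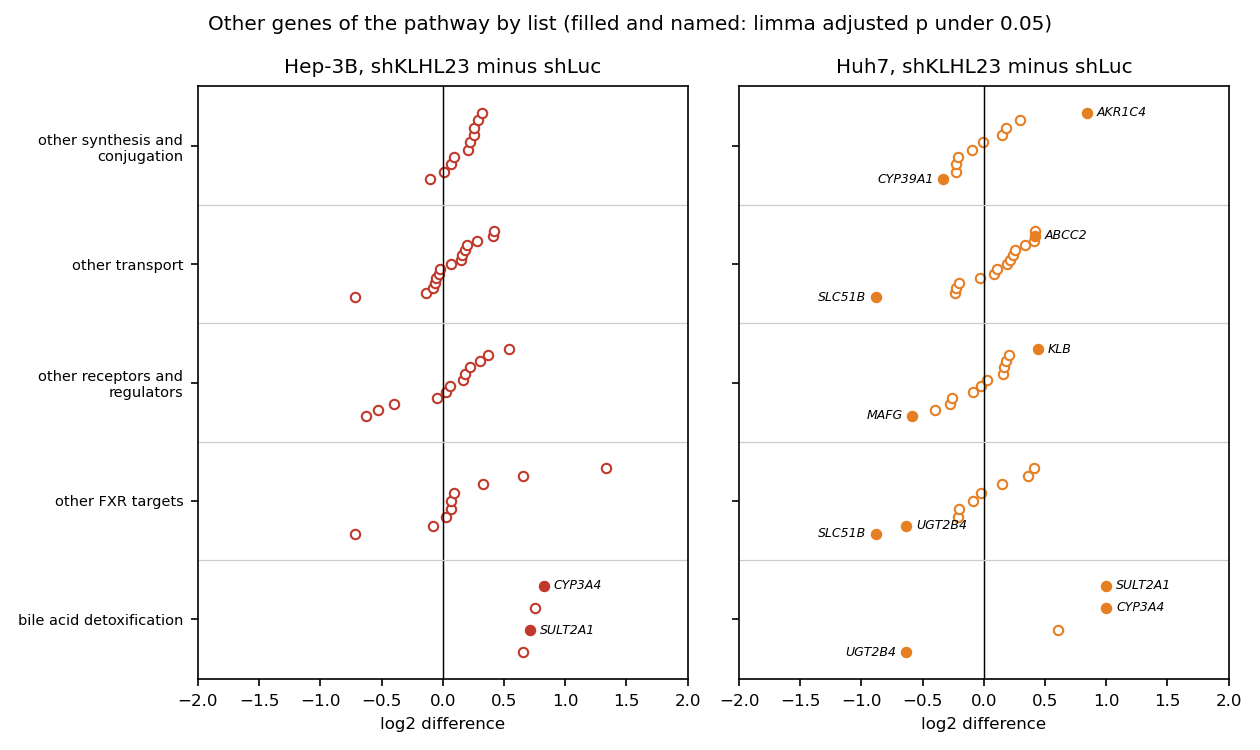
Log2 difference between shKLHL23 and shLuc cells for other genes of the bile acid pathway, by list, in Hep-3B (left) and Huh7 (right), with genes called at a limma adjusted p under 0.05 filled and named (brightest probe set, 2 arrays per group). SLC51B and UGT2B4 stand in 2 lists each, and SULT2A1 and CYP3A4 are filled on the right-hand side of both panels.

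Among other synthesis enzymes in Huh7, AKR1C4, a ketosteroid reductase of the pathway, rose by 0.84 (SE 0.13, limma adjusted p = 0.00554), and CYP39A1, an oxysterol hydroxylase, fell by 0.33 (SE 0.09, limma adjusted p = 0.0386). Among receptors and regulators KLB, the FGF19 coreceptor, had 8.65 and 8.55 with shKLHL23 and 8.23 and 8.10 with shLuc (0.44, SE 0.11, limma adjusted p = 0.0306), and its second probe set gave 0.69. FGFR4 had 10.08 and 10.10 with shKLHL23 and 10.28 and 10.42 with shLuc and did not pass. MAFG, a transcriptional repressor of bile acid synthesis genes in mouse, fell by 0.59 (SE 0.12, limma adjusted p = 0.0145). The brightest probe sets of ABCC2 and CYP39A1 did not pass when every probe set was tested (limma adjusted p = 0.0648 and 0.0673), among other alternatives, whereas a dimmer one of CYP39A1 did, at -0.76 (limma adjusted p = 0.00815). KLB, UGT2B4 and MAFG lost their calls without either Huh7 control array or Huh7 knockdown replicate 1, and AKR1C4 without Huh7 control replicate 1. KLB and UGT2B4 also lost theirs without either Hep-3B control array. KLB did so too when the 4 Huh7 arrays were fitted alone (limma adjusted p = 0.0586). Probe sets of AKR1C4, CYP3A4 and UGT2B4 belong to families of near-identical genes and are uncertain in that respect.

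Between lines, the knockdown effects of UGT2B4 and SLC51B also differed, 2 of the 45 genes, where 1.26% of all genes were called. UGT2B4 was at -0.64 in Huh7 and 0.65 in Hep-3B, a difference of -1.29 (SE 0.22, limma adjusted p = 0.0396). SLC51B was at -0.88 in Huh7 and 0.07 in Hep-3B, a difference of -0.95 (SE 0.14, limma adjusted p = 0.0291). Each was lost without any single control array, Hep-3B knockdown replicate 3 or Huh7 knockdown replicate 1. In control cells 15 of the 45 genes were higher and 12 lower in Huh7 than in Hep-3B, where 17.7% of all genes were higher and 14.9% lower. SLC51A had 2.67 and 2.38 in Huh7, below the lower quartile, and 7.37 and 7.40 in Hep-3B (-4.86, limma adjusted p = 4.65e-07). Its partner SLC51B was higher in Huh7 by 1.98 (limma adjusted p = 1.69e-06). ABCG5, a subunit of the sterol exporter of the canalicular membrane, was at -3.64 (limma adjusted p = 1.57e-07), and NR5A2, the receptor LRH-1 that binds the CYP7A1 and NR0B2 promoters, at 1.77 (limma adjusted p = 5.83e-06). KNG1 was at 3.51 (limma adjusted p = 2.57e-05). Of the FGF19 receptor pair, FGFR4 was higher in Huh7 (1.19, limma adjusted p = 6.14e-05) and KLB lower (-1.63, limma adjusted p = 8e-06). SULT2A1 (-1.64, limma adjusted p = 1.55e-05) and the brightest probe set of CYP3A4 (-1.08, limma adjusted p = 0.000209) were lower.

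The genes whose profile over the 8 arrays was most like that of CYP7A1 and NR0B2 were found by the root mean square difference between profiles, each centred on its own mean. For CYP7A1, whose SD over the arrays was 0.96, these were SESN3 (0.20), PSG9 (0.21, by a probe set prone to cross-hybridise with related genes) and CAPN3 (0.24). For NR0B2, whose SD was 2.05, they were the keratin gene KRT19 (0.32), CYFIP2 (0.40) and CACNA2D4 (0.52). KRT19 had 9.67 and 9.26 in Huh7 with shKLHL23 and 8.02 and 8.26 with shLuc, and 12.14 and 12.34 in Hep-3B with shKLHL23 and 12.10 and 12.01 with shLuc. The 8 arrays come from 4 groups, so these likenesses describe the group means more than single arrays.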

How the data were processed

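Expression was measured on Affymetrix arrays of 54675 probe sets. The deposited values are log2 RMA values, which the authors made with Expression Console 1.2 (Affymetrix); this comes from the submitters' processing notes. RMA equalises array distributions and compresses differences between dim probe sets. Its further settings are not given in the sources used here, and background calls and scan batches were not used. Samples were grouped by their titles.

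The platform annotation paired 41097 probe sets with 1 symbol and 1801 with several, and 11777 were unnamed. Of the single symbols 41043 were matched by gene identifier to RefSeq GRCh38.p14, and 0 changed. The probe set with the highest mean stood for each of 19775 genes. limma 3.58.1 (R 4.3.3) fitted 4 group means to all 8 arrays (lmFit, eBayes, 4 residual and 4.59 prior degrees of freedom), with Benjamini-Hochberg adjustment over all genes and a threshold of 0.05. SEs are moderated. The number of arrays limits the precision. The fit was tested on simulated data.

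Same-numbered replicates did not deviate together (correlation of deviations -0.07 in Hep-3B and 0.06 in Huh7), so they were not paired in the fit. Genes named are the 10 chosen, pathway genes called (at most 4 per list and comparison, by size), KLHL23 and the 3 genes most like CYP7A1 and NR0B2 in profile. Some comparison values of further genes (SLC51A, FGFR4, KNG1, KRT19, EPCAM, SOX9, KRT7, CFTR, TTR, PECAM1, COL1A1, FETUB, FOXA2) are given beside these, chosen after their values were seen. Of the pathway genes called between control cells, only some are given. The genes and lists were chosen with earlier results of these data known. Alternatives covered the probe set choice, normalization, a filter on dim genes, the variance prior, array weights, a replicate block, separate fits and leaving out each array.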

Additional observations from a re-analysis of the deposited data

Results flagged for a closer look

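The knockdown effect differed between the lines, by the test of the difference itself, for 5 genes of the pathway. These were 3 of the 9 chosen genes measured and 2 of the 45 others, where 1.26% of all genes were called. Apart from that of NR0B2, each call was lost when any single control array was left out. For NR0B2 the Huh7 effect exceeded the Hep-3B effect by 2.25 (limma adjusted p = 0.00312), with the Huh7 knockdown arrays 2.12 and 1.83 above the Huh7 control mean and the Hep-3B knockdown arrays at -0.21 and -0.34 from theirs. For CYP7A1 the difference between effects was -1.69 (limma adjusted p = 0.0153), with knockdown arrays at -0.08 and -0.22 from the control mean in Huh7 and at 1.32 and 1.75 in Hep-3B. CYP7A1 lay below the lower quartile of the probe sets on 6 of the 8 arrays. For FGF19 it was -1.11 (limma adjusted p = 0.0307), with knockdown arrays at -0.99 and -0.93 in Huh7 and at 0.26 and 0.04 in Hep-3B. For SLC51B it was -0.95 (limma adjusted p = 0.0291), and for UGT2B4 it was -1.29 (limma adjusted p = 0.0396). Groups of 2 arrays are too small to test for single arrays that stand apart. The knockdown of KLHL23 itself was uneven between the Hep-3B replicates. On average it was weaker in Hep-3B (-1.14) than in Huh7 (-2.05), a difference that did not pass (limma adjusted p = 0.316). Line and depth of knockdown cannot be told apart in these results.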

How the results depend on the processing

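Of 1342 gene values recomputed under 10 alternatives and 8 fits that each left out 1 array, 1204 kept their direction and their side of the threshold, 115 lost it, 8 gained it and 15 changed sign. The count of bile acid genes called in Huh7 was 2 under every alternative run, and in the comparison of control cells it was 5 to 7, with a range of 5 to 6 when an array was left out. In Hep-3B the count of 1 was 0 with dim genes left out, since CYP7A1 was then not tested, and 0 in the fit of the 4 Hep-3B arrays alone. It was 2 with an intensity trend and robust prior, 2 with array weights and 3 with the replicate block, where CYP8B1 and BAAT passed (limma adjusted p = 0.0494 and 0.0261). Leaving out 1 array gave 0 to 3. Whether the shared numbers pair the samples is not stated, and the block left the calls of NR0B2 and FGF19 in Huh7 in place. Between control cells the block fit compared the lines at the level of replicate 3, not as group means, so its differences are not the same quantity. For the difference between lines the count of 3 ranged from 1 to 3 when an array was left out. CYP3A4 changed sign when probe sets prone to cross-hybridise were left out, at -0.0057 in the Hep-3B knockdown and 0.024 between control cells, since another probe set then stood for it. The other 13 sign changes were of values near 0 that were not called. ABCB11 in Hep-3B was 0.017 with the mean of its probe sets, 0.044 with its other probe set and -0.071 to 0.051 with 1 array left out. With 1 array left out it was -0.24 to 0.071 in Huh7 and -0.23 to 0.081 for the difference between lines. CYP7B1 in Hep-3B was -0.020 to 0.088 with 1 array left out. Between control cells CYP7B1 was 0.13 with the mean of its probe sets and -0.069 to 0.038 with 1 array left out. AKR1D1 in Huh7 was -0.096 to 0.055 with 1 array left out. CYP27A1 was -0.015 to 0.19 for the difference between lines with 1 array left out. The cause of these changes was not tested. Dim signal limits CYP7A1, CYP7B1, ABCB11 and, in Huh7, AKR1D1 and SLC51A.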
